A study of Homo sapiens with 4 samples.

Results

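IGF2BP2-binding peaks were described on 9 human genes that write, read out, remove or metabolically tune DNA methylation: DNMT1, UHRF1, DNMT3A, DNMT3B, TET1, TET2, TET3, IDH1 and IDH2. Counted were their sense peaks, those listed under the Ensembl identifier of the gene and lying mainly in its exons or introns on its own strand. These came to 110 of 74237 sense peaks in replicate 1 and 164 of 77288 in replicate 2 (mean 137 ± 38.2, SD, n = 2), and genes without a peak were kept. The data came from Jurkat, an established line of human T-cell acute lymphoblastic leukemia (T-ALL), grown without a treatment or a genetic change. In iRIP-seq the cells are crosslinked with UV light, IGF2BP2 is precipitated with an antibody, and the RNA held by it is sequenced. There were 2 IGF2BP2 iRIP libraries and 2 input libraries, and the peak lists of the iRIP libraries are used here, while the inputs were not analysed here. The labels do not say whether the replicates were separate cultures, so the spread between them may be technical.

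Cytosine methylation is copied to the new strand after replication by DNMT1, which UHRF1 brings to half-methylated sites, and is set up anew by DNMT3A and DNMT3B. The TET enzymes oxidise 5-methylcytosine with the help of 2-oxoglutarate, which IDH1 makes in the cytosol and IDH2 in mitochondria, and mutant IDH enzymes make 2-hydroxyglutarate, which blocks them. Several of these genes, DNMT3A, TET2 and IDH2 among them, are mutated in blood cancers. IGF2BP2 is an RNA-binding protein and a reader of N6-methyladenosine on mRNA, so the question here was which of these mRNAs carried its peaks, and where.

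The lists held 145715 peaks (replicate 1) and 137934 peaks (replicate 2), and 50.9% and 56.0% of them were sense peaks. Positions are those of the lists (GRCh38), and the height of a peak is given in tags. It started at 4 tags in replicate 1, where 74.3% of the peaks stood at this minimum, and at 5 tags in replicate 2, where 62.6% did. Read totals are not in the lists, so the depth is unknown and heights were not scaled. Of 13 T-cell marker genes, 11 had a sense peak in both libraries, PTCRA had none and CD2 had peaks in replicate 1 only. Among 13 B-cell, myeloid and erythroid markers PAX5 was the only one with peaks in both. A peak needs both the RNA and its binding, so these counts do not rank the genes by expression. For the same reason, in these bulk samples, fewer cells with an RNA, less RNA per cell and weaker binding cannot be told apart.

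Of the 9 genes, 8 had a sense peak in replicate 1 and all 9 in replicate 2, where IDH1 joined the others. Among the 20037 protein-coding genes listed by RefSeq, 53.7% and 52.3% had one. In both libraries it was 8 of the 9 genes against 43.5% of all genes, and with a height of 5 tags or more it was still 8 against 26.8%. With a p value under 0.001 in both it was 5, namely DNMT1, UHRF1, DNMT3A, TET3 and IDH2, against 11.9%. An overlapping pair, meaning peaks of both libraries that share at least 1 bp on the same strand, was found in 6 of the 9 genes, against 15% of all genes. Peaks that reached 10 tags in each library were found on DNMT1, UHRF1 and IDH2, against 3.75% of all genes, and such high peaks overlapped on UHRF1 and IDH2, against 2.82%. The genes were chosen with earlier results of these data known, and all-gene shares count genes without a name as having no peak, so no test was made on these shares.

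DNMT1, the maintenance methyltransferase, is listed as ENSG00000130816.17 on the minus strand of chromosome 19. With 28 sense peaks in replicate 1 and 51 in replicate 2 it had the highest number of the 9 genes in each library. Of these, 15 and 28 lay mainly in coding sequence (CDS), 3 and 7 in noncoding exons, 10 and 14 in introns, and 0 and 2 in the 3′ UTR. Peaks thus ran along the coding exons of the transcript rather than at a single place, with 8 of 28 and 19 of 51 in the last 20% of the gene. Heights ran from 4 to 20 tags in replicate 1, with a median of 5 tags, and from 5 to 34 tags in replicate 2, with a median of 7 tags. In each library 18 peaks were overlapped by the other, which is 64.3% of the peaks of replicate 1 and 35.3% of those of replicate 2.

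The highest DNMT1 peaks did not coincide between the libraries. In replicate 1 the highest stood at 10160000 to 10160050 with 20 tags, and in replicate 2 at 10160350 to 10160400 with 34 tags, mainly in a noncoding exon and 300 nt from the nearest DNMT1 peak of replicate 1. In replicate 2, 17 peaks reached 10 tags and 12 of them had no overlapping peak in replicate 1, among them CDS peaks of 24.5 tags at 10162650 to 10162750 and of 24 tags at 10146350 to 10146400. Another, of 23 tags at 10194800 to 10194850, lay near the start of the gene. Both DNMT1 peaks that reached 10 tags in replicate 1 were without a partner as well. Over all sense peaks of this height, 73.5% in replicate 1 and 62.4% in replicate 2 had a partner. The methods state that IP peaks overlapping input peaks were removed, without saying whether the deposited lists are those before or after, so a missing partner does not show that a site had no tags. Of the paired sites the one with the highest lower value was at 10143750 to 10143800, with 9 tags in replicate 1, against 10.8 tags in replicate 2 for a longer peak over the same place. At 10134200 to 10134250, wholly in CDS near the end of the gene, the libraries differed more, with 4 and 16 tags.

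UHRF1, which binds half-methylated DNA and recruits DNMT1, is listed as ENSG00000276043.5 on the plus strand of chromosome 19. It had 21 and 26 sense peaks, of which 13 and 14 lay mainly in CDS and 7 and 10 in introns. Heights ran from 4 to 15 tags (median 5.5) in replicate 1 and from 5 to 33 tags (median 9) in replicate 2. Here most high peaks had a partner. Of those with 10 tags or more, all 3 in replicate 1 and 9 of the 11 in replicate 2 had one, against 73.5% and 62.4% of all sense peaks of this height. Over all heights 12 UHRF1 peaks of each library had a partner. The site at 4945850 to 4945900, with a share of 0.8 in CDS, had 15 and 22 tags, and no other shared site of the 9 genes had as many tags in its lower library. The site at 4950600 to 4950650, also 0.8 in CDS, had 10 and 19 tags, and that at 4947100 to 4947200 had 9 and 14 tags. At 4932700 to 4932750 replicate 2 reached 33 tags, whereas the overlapping peak of replicate 1, which ran on to 4932850, had 5.67 tags.

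Sense peaks of 50 bases were looked up in the promoter windows of the RefSeq sequence table (GRCh38.p14), and longer ones were not. Of those on the 9 genes only 1 lay in such a window, a UHRF1 peak in the 5′ UTR, so its letters can be shown. It had 6 tags in replicate 2 and no partner in replicate 1. The capitals mark GGAG, a match to GGAN (N is any base), which was searched on the RNA strand only. The peak held 2 matches in 50 bases, 1 of them in the last 30 bases, printed here from 5′ to 3′.

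UHRF1, chr19:4910221-4910250, plus strand: cgagctgccgggggttGGAGgtcgaggtga

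By the authors' region shares the last 4 bases are intron, and they start with gt, the usual first letters of an intron. The same was looked at in 50-base sense peaks of such windows listed under exactly 2 regions, intron being 1, with at least a few bases of each. The intron was taken to be the last part of the peak, which was not checked. Peaks that begin in an intron may therefore be among them. Read as half-open intervals, 53.4% of 73 in replicate 1 and 54.2% of 72 in replicate 2 had GT where the intron would start, against 5.48% and 1.39% at 1 base before and 4.11% and 4.17% at 1 base after. Among all sense peaks of 50 bases that lie in such a window, 68.5% of 336 in replicate 1 and 64.6% of 387 in replicate 2 held a GGAN, so a match in a window of this length is common.

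DNMT3A and DNMT3B, the methyltransferases that set methylation on unmodified DNA, differed widely in their number of peaks. DNMT3A (ENSG00000119772.18, chromosome 2, minus strand) had 15 and 24 sense peaks, and DNMT3B (ENSG00000088305.18, chromosome 20, plus strand) had 4 and 5. For DNMT3A, 5 and 11 lay mainly in CDS, 5 and 9 in introns, 4 and 3 in the 3′ UTR and a single one per library in noncoding exons. The last 20% of the gene held 11 of its 15 peaks in replicate 1 and 15 of 24 in replicate 2, most of them exonic (9 and 13). The heights ran from 4 to 8 tags in replicate 1 and from 5 to 14 tags in replicate 2, where 6 peaks reached 10 tags. One of these, with 14 tags at 25246000 to 25246050, lay 550 nt from the nearest peak of replicate 1.

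DNMT3A had 5 shared sites. At 25244150 to 25244200, mainly in CDS, the heights were 5 and 14 tags, and at 25313900 to 25313950, a CDS site far upstream, 5 and 8 tags. The 3′ UTR held 2 of the sites, with 5 and 8 tags at 25234050 to 25234100, and with 5 tags at 25228800 to 25228850 against 6 tags over a longer peak of replicate 2. These 2 were the only 3′ UTR sites among the 49 shared sites of the 9 genes. DNMT3B reached 5 tags at most in replicate 1 and 6 tags in replicate 2. Its single shared site, at 32762900 to 32762950 in an intron near the start of the gene, had 4 and 5 tags, the minima of the lists. None of its CDS peaks, 2 in replicate 1 and 1 in replicate 2, had a partner.

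Among the TET enzymes, which oxidise 5-methylcytosine and so start its removal, TET3 (ENSG00000187605.16, chromosome 2, plus strand) had the most sense peaks, 19 in replicate 1 and 34 in replicate 2. TET1 (ENSG00000138336.9, chromosome 10, plus strand) had 7 and 6, and TET2 (ENSG00000168769.14, chromosome 4, plus strand) had 5 and 5. With peaks of 5 tags or more, the floor of replicate 2, TET1 had 1 and 6, TET2 2 and 5 and TET3 10 and 34, so most TET1 and TET2 peaks of replicate 1 stood at its minimum of 4 tags. The 3 genes have similar RefSeq lengths, 151.868 kb for TET3, 134.151 kb for TET1 and 133.929 kb for TET2. Of the TET3 peaks, 8 and 20 lay mainly in CDS. No TET2 peak touched an exon, and TET1 had 1 exonic peak in replicate 1, in the 5′ UTR, and 2 in replicate 2, in CDS. All TET1 and TET2 peaks had between 4 and 6 tags, and none had a partner in the other library. Partners were uncommon over all sense peaks too, at 16.6% in replicate 1 and 15.8% in replicate 2. For all intron peaks the shares were 7.11% and 7.12%, so a lack of partners among so few peaks does not set these genes apart.

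TET3 peaks were dense in a stretch of 2200 nt from 74046250 to 74048450. It held 6 peaks of replicate 1, with 4 to 9 tags, and 13 of replicate 2, with 5 to 11 tags, and 17 of these 19 lay wholly in CDS. Its first and last peaks, both of replicate 2, crossed between CDS and an intron, with shares of 0.46 and 0.22 in CDS. No other run of peaks on the 9 genes with gaps of at most 500 nt held more than 7, but exon lengths were not taken into account. The stretch was picked out after the peaks had been seen. Within it 3 peaks of replicate 1 were overlapped by replicate 2, the clearest at 74047450 to 74047500, with 5 tags against 9.5 tags for a longer peak of replicate 2. Outside the stretch TET3 had 3 shared sites, and the one with the most tags, at 74093500 to 74093550 with a share of 0.44 in CDS and the rest in the intron, had 7 and 10 tags. In replicate 2 TET3 had 2 peaks mainly in the 5′ UTR and 2 in the 3′ UTR, and replicate 1 had none in either.

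IDH1 and IDH2 make the 2-oxoglutarate that TET enzymes use, and their peak counts lay far apart. Their genes have almost the same length, 18.845 kb for IDH1 and 19.424 kb for IDH2. IDH2 (ENSG00000182054.10, chromosome 15, minus strand) had 11 and 12 sense peaks, and mainly CDS was covered by 8 and 9 of them. IDH1 (ENSG00000138413.14, chromosome 2, minus strand) had 0 and 1. That one IDH1 peak lay in an intron at 208243650 to 208243700 and had 5 tags, the minimum of its list. IDH2 heights ran from 4 to 16 tags (median 6) in replicate 1 and from 5 to 14.5 tags (median 8.5) in replicate 2.

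IDH2 had 7 shared sites, 63.6% of its peaks in replicate 1 and 58.3% in replicate 2. The one at 90102250 to 90102350, with a share of 0.75 in CDS at the start of the gene, had 10.5 and 14 tags. That at 90091550 to 90091650 had 7 and 14.5 tags, and that at 90088350 to 90088400 had 12 and 8 tags, so that replicate 1 was the higher one here. At 90084800 to 90084850, with 0.7 in CDS, the heights were 4 and 14 tags. All 4 IDH2 peaks that reached 10 tags in replicate 2 had a partner, against 62.4% of all sense peaks of this height. The highest of replicate 1, at 90088550 to 90088600 with 16 tags, had none and lay 100 nt from the nearest peak of replicate 2.

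Since longer genes offer more room for peaks, the counts were also set against gene length, introns included. DNMT1 had 4.54 and 8.28 peaks per 10 kb, IDH2 5.66 and 6.18, UHRF1 3.55 and 4.40. These 3 genes lay above the other 6 in both libraries. DNMT1 and IDH2 could not be put in order, since IDH2 was higher in replicate 1 and DNMT1 in replicate 2. TET3 (1.25 and 2.24) and DNMT3A (1.31 and 2.09) overlapped each other. DNMT3B followed with 0.852 and 1.06, and TET1 (0.522 and 0.447), TET2 (0.373 in both) and IDH1 (0 and 0.531) came last and overlapped in part. With only peaks of at least 5 tags, the lowest height that both lists hold, IDH2 had 5.15 peaks per 10 kb in replicate 1 against 2.60 for DNMT1 and 2.20 for UHRF1.

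Each gene was also set against all protein-coding genes in the decile of its length. Genes that no identifier could be named for count there as having no peak, whereas the 9 genes were matched by identifier, so the shares are upper values. DNMT1 had more sense peaks than 99.1% of its 2002 length-matched genes in replicate 1 and 99.6% in replicate 2, and UHRF1 more than 98.0% in each. IDH2 had more than 96.7% and 94.9% of its 2003, TET3 more than 95.3% and 97.5%, and DNMT3A more than 93.3% and 96.0%. DNMT3B (76.2% and 79.8%), TET1 (77.8% and 72.6%) and TET2 (64.6% and 66.9%) lay closer to the middle. IDH1 had no peak in replicate 1, and in replicate 2 its 1 peak put it above the 52.5% of its length-matched genes to which no peak was assigned.

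Across the 9 genes CDS was the main region of 46.4% of the peaks of replicate 1 (37.3% to 55.6%, 95% Wilson interval) and of 51.8% of those of replicate 2 (44.2% to 59.3%), a mean of 49.1% ± 3.86 (SD, n = 2). Over all sense peaks the shares were 19.9% and 25.6%. Among peaks with 10 tags or more the gap was small, since CDS held 62.5% (30.6% to 86.3%) and 72.1% (57.3% to 83.3%) of those on the 9 genes and 58.5% and 59.9% of all, which lie within these intervals. Such intervals cover counting error only, and peaks of the same gene are not independent, so the sets were not tested against each other. Introns held 44.5% and 35.4% of the peaks of the 9 genes, against 69.2% and 62.4% of all sense peaks. Peaks that crossed from CDS into an intron made up 38.2% and 37.8%, against 15.5% and 21.0% of all sense peaks. Of the peaks with 10 tags or more, 0 of 8 and 0 of 43 lay wholly in an intron, which allows shares of up to 32.4% and 8.20% (Wilson), against 5.23% and 5.68% over all sense peaks of this height.

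The libraries differed in how much of the other they covered. Of the peaks of replicate 1, 44.5% (49 of 110, Wilson interval 35.6% to 53.9%) were overlapped by replicate 2, and of those of replicate 2, 29.9% (49 of 164, 23.4% to 37.3%). The same shares over all sense peaks were 16.6% and 15.8%. Among high peaks the shares of the 9 genes were the lower ones, but not for each gene. Of those with 10 tags or more, 62.5% (30.6% to 86.3%) and 46.5% (32.5% to 61.1%) were overlapped on the 9 genes, against 73.5% and 62.4% of all sense peaks of this height. The 73.5% lies within the interval of replicate 1, which rests on 8 peaks. In replicate 2, 5 of 17 were overlapped on DNMT1, 1 of 6 on DNMT3A and 1 of 5 on TET3. On UHRF1 it was 9 of 11 and on IDH2 4 of 4. The 9 genes also had more of these high peaks, 7.27% and 26.2% of their peaks against 2.73% and 8.75%. Among the 49 shared sites, 35 lay mainly in CDS, 10 in introns, 2 in noncoding exons and 2 in the 3′ UTR. Taken over every gene, 12357 sense peaks of replicate 1 had a partner, with CDS as main region for 6763 and intron for 3654. Most shared peaks of the whole list were thus CDS peaks too, so a CDS majority does not set the 9 genes apart. Of the 49 sites, 32 had the same start and end in both lists. For CDS peaks the overlapped share was 68.6% in replicate 1 and 40.0% in replicate 2, against 45.8% and 35.0% over all CDS peaks. For intron peaks it was 20.4% and 17.2%, against 7.11% and 7.12%.

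A shared site is here a replicate 1 peak with the replicate 2 peak that overlaps it most. The DNMT1 sites at 10143750 to 10143800 and at 10143850 to 10143950 thus have the same partner. Only 32 of the 49 pairs have equal intervals, and the others compare mean heights over different intervals. Heights at shared sites were mostly greater in replicate 2, in 41 of 49 sites, with a median ratio of 1.57 to replicate 1. For all 12357 sense pairs this was so in 77.9%, with a median ratio of 1.4. The lists begin at different heights and have unknown depth, so the ratio cannot be read as a change in binding. Spearman's rho between the heights of the 49 sites was 0.26 and that over all pairs 0.42, given as descriptions, since sites of a gene share its RNA level and its library. At 5 tags or more replicate 2 had 2.73 times as many peaks on the 9 genes as replicate 1 (164 against 60), and 3.22 times as many over all sense peaks.

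**Figure D1:**
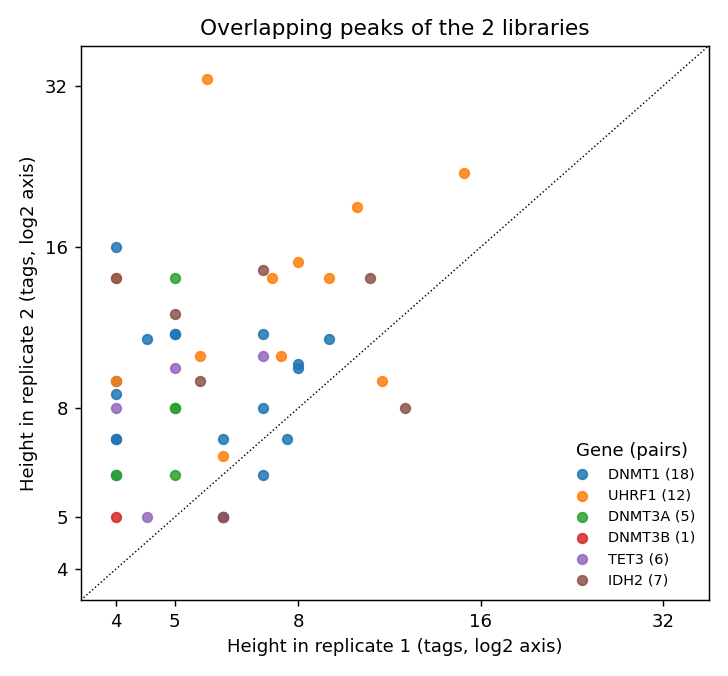
Heights of the 49 overlapping pairs of peaks (both axes in tags, log2 axes; replicate 1 horizontal, replicate 2 vertical), coloured by gene with the number of pairs in brackets; the dotted line marks equal heights. 41 points lie above the line, and the UHRF1 site with 15 and 22 tags lies farthest to the right.

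Antisense peaks, which the region assignment puts on the opposite strand of a gene, are not part of the counts above. The 9 genes had 15 in replicate 1 and 16 in replicate 2, with 4 to 7 tags, or 12.0% and 8.89% of all peaks under their identifiers. Over all gene peaks the shares were 28.1% and 23.0%. TET3 had 5 and 3 of them, DNMT3A 2 and 7, DNMT1 3 and 3 and TET1 3 and 1. A single place had an antisense peak in both libraries, in DNMT1 at 10163300 to 10163350, with 4 and 5 tags, and in replicate 2 a sense peak of 16.5 tags lay over it. One antisense peak of TET2, with 6 tags in replicate 2, fell within the RefSeq gene TET2-AS1, which is read from that strand. The peaks listed as antisense to IDH1, 1 in each library, had 4 and 5 tags and did not overlap.

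Beyond the 9 genes, 47 other genes of the methylation and demethylation pathway were looked at as a list. A sense peak in both libraries was found for 35 of them (74.5%), in 1 library for 6 and in neither for 6. An overlapping pair was found for 20 (42.6%), against 15% of all genes. The median number of peaks was 4 in each library, against 11 and 12 for the 9 genes and 1 over all protein-coding genes. Of 9 maintenance and accessory factors, 8 had peaks in both libraries, and beside the 43.5% over all genes so had 5 of 9 base excision repair genes, 5 of 8 methyl-CpG binding genes, 3 of 5 CXXC and TET partner genes, 5 of 6 genes of the methyl donor cycle and 8 of 9 genes of isocitrate and 2-hydroxyglutarate metabolism. The tRNA methyltransferase TRDMT1, a relative of the DNMT family, had 1 and 2 peaks without an overlap.

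The highest shared site of this list was on PARP1, which binds DNA breaks, with 14 and 17 tags, followed by CDCA7 (11 and 12 tags), the methyl-CpG binding gene MBD1 (11 and 13 tags) and HELLS (10 and 13 tags). CDCA7 and HELLS act together as a chromatin remodeller needed for DNA methylation. Next, equal in their lower height of 7 tags, came USP7, a deubiquitinase that stabilises UHRF1 and DNMT1 (10 and 7 tags), ZBTB4 (7 and 9 tags), CXXC1 (7 and 9 tags) and the DNA ligase LIG3 (7 and 10 tags). The thymine DNA glycosylase TDG, which cuts out the oxidised bases that TET enzymes make, had 1 peak in each library, of 4 and 6 tags, and these did not overlap. No sense peak was assigned to DNMT3L, NEIL2, ZBTB33, CXXC4, MAT2B or IDH3A, but identifiers left without a name may belong to them, and 1 sense peak lay within the RefSeq interval of NEIL2.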

How the data were processed

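Peaks came from 2 IGF2BP2 iRIP libraries of Jurkat cells, and 2 input libraries were not analysed here. Per the methods and labels, the authors aligned 150 bp read pairs with TopHat 2 to GRCh38, kept uniquely mapped reads, called peaks in each library by the ABLIRC strategy and removed IP peaks that overlapped input peaks, and whether the lists are from before or after this removal is not given in the sources used here. Tool versions and the annotation release are not given in the sources used here. The deposited height is a signal in tags per peak. In both lists all peaks start at a multiple of 50 nt and the height times the number of 50 nt bins is whole (tolerance 0.01), so the height of a longer peak is a mean over its bins. The p-value that the authors gave a peak served as a filter in 1 alternative.

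The main region of a peak was the one covering most of its length, or the first listed of equal ones. The 9 Ensembl identifiers were matched without version and checked by position. Other identifiers were named by position and strand against RefSeq (GRCh38.p14): the only protein-coding gene holding at least 80% of the CDS and UTR peaks with a margin of 1000 nt or, without such peaks, the only gene holding all peaks. Of 20428 identifiers 15422 were named and 5006 were not. On simulated data 2822 of 2822 planted pairs were found and 500 of 500 genes named rightly. There the genes lay well apart and planted pairs had identical coding intervals. This checks the code only, not the naming of genes that overlap or lie close together. Lists and genes were chosen with earlier results of these data known. Named were the 9 genes and, of the pathway list, the 5 genes with the highest shared peak by its lower height, ties included, and those without a peak; TDG and TRDMT1 were added after their values were seen. Peaks were counted without a test. Python 3.11.15, numpy 2.4.6, pandas 2.3.3 and scipy 1.17.1 were used. Alternatives are given in the closing section.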

Additional observations from a re-analysis of the deposited data

How the results depend on the processing

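Depth is unknown, so the minimum height weighs differently on each library. At 5 tags or more, replicate 1 had 60 peaks on the 9 genes, 61.7% of them mainly in CDS and 58.3% overlapped by replicate 2 (35.7% and 35.9% over all sense peaks). At 10 tags or more the peaks were 8 and 43, 62.5% and 72.1% of them in CDS (58.5% and 59.9% over all sense peaks). At this height 3 of the 9 genes had a peak in both libraries (DNMT1, UHRF1 and IDH2), against 3.75% of all genes. An overlapping pair was left on 2 (UHRF1 and IDH2), against 2.82% of all genes. Of the pathway list 6 genes (12.8%) kept a peak in each library. With a p value under 0.001 the peaks were 29 and 80, with 65.5% and 67.5% in CDS. The CDS share of all sense peaks under this filter was not computed. In both libraries 5 of the 9 genes (without DNMT3B, TET1, TET2 and IDH1) kept a peak. So did 17 of 47 pathway genes (36.2%) and 11.9% of all genes. With exonic peaks only there were 61 and 106 peaks, and 62.3% of those of replicate 1 were overlapped. The same share over all exonic peaks was not computed, while over all CDS peaks of replicate 1 it was 45.8%. An exonic peak in both libraries was found on 7 of the 9 genes, against 21.9% of all genes. Taken from replicate 2, with all heights and regions, the overlapped share was 29.9%, against 15.8% over all sense peaks. The cause of these shifts was not tested. With either library left out, 8 to 9 of the 9 genes and 36 to 40 of 47 pathway genes had a peak, against 52.3% to 53.7% of all genes. Assignment by interval and strand, overlap of at least 50% of the length, touching peaks and overlap on either strand moved the counts by less than 1.5 times and kept the shares within their Wilson intervals. The share of peaks with GGAC was not run for the 9 genes, since sequence used here, that of promoter windows, covered 1 of their peaks of 50 bases. Longer peaks were not looked up. No paired analysis was possible because the inputs, which share replicate numbers with the iRIP libraries, were not analysed here.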
